A study of Mus musculus with 4 samples.

Results

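The Gas5, Vmp1, Mir21 and Mir31 host loci are 3 regions of the mouse genome that were examined for integration sites of an HIV-based vector. The regions are chromosome 1 from 162900001 to 163000000 for Gas5, chromosome 11 from 86300001 to 86500000 for Vmp1 and Mir21, and chromosome 4 from 88500001 to 88600000 for the host of Mir31, all in mm9. Every distinct junction in these regions was taken, which gave 177 of the 122029 sites of the 4 libraries: 32 of 22486 in Full WT, 30 of 39292 in Full M880A, 45 of 25363 in PHD WT and 70 of 34888 in PHD M880A. The regions were chosen from the numbers of sites in these libraries, so the counts and ratios per region describe them and support nothing. That the genes lie in these regions was taken from the choice of regions and was not checked against a gene annotation of mm9.

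All libraries came from Psip1 (-/-) mouse embryonic fibroblasts (MEF-KO cells, line E2, strain C57BL/6). Psip1 encodes LEDGF/p75, through which HIV integrase is usually held on chromatin, and its loss is shared by every group. Cells received a plasmid for TAF3 joined to the integrase-binding domain (IBD) of LEDGF, were sorted for GFP and were then infected, so that the vector can integrate near the fusion. The fusion held full-length TAF3 (Full) or the PHD domain alone (PHD), as wild type (WT) or with the M880A substitution, and each of the 4 forms was 1 library from 1 knockout line. No difference below therefore has a replicate check, no p-value is given, and the 95% intervals cover counting error only. PCR reads carry no molecular identifiers, so the unit counted is the distinct position. Full WT was sequenced apart on another flow cell from the other 3 libraries, which shared 1, so flow cell and form cannot be told apart in comparisons with Full WT.

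TAF3 is a subunit of TFIID, the general factor that recognises core promoters, and its PHD finger reads the trimethyl mark on lysine 4 of histone H3 (H3K4me3), which sits at active promoters. Gas5 is a long noncoding RNA gene that rises in growth-arrested cells and carries small nucleolar RNAs (snoRNAs), guides of ribosomal RNA modification, in its introns. Vmp1 encodes a membrane protein of the endoplasmic reticulum that acts in autophagy, and miR-21, a microRNA abundant in many tumours and in fibroblasts, is made from the end of the same locus. The miR-31 microRNA is made from a noncoding host transcript next to the type I interferon genes. In the RefSeq gene table (GRCm38.p6, used for names and order only), all 4 members were found. There, 8 snoRNA genes lie within Gas5. Mir21a, the listed name of Mir21, lies within Vmp1, between Tubd1 and Ptrh2. Mir31 lies within the noncoding gene Gm49890, between Ifne and Mtap.

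The mature microRNAs of Mir21a and Mir31 are shown because they are the products by which Mir21 and Mir31 are known. The last sequence, miR-21c, is listed under a separate gene, Mir21c, and is shown for its seed. Sequences are from RefSeq (GRCm38.p6), 5′ to 3′, with the seed (bases 2 to 8), the stretch that pairs with target messages, in capitals.
miR-21a-5p: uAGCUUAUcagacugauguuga
miR-21a-3p: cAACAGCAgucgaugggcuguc
miR-31-5p: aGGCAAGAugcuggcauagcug
miR-31-3p: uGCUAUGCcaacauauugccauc
miR-21c: uAGCUUAUcagacugguacaa
These 4 arms of Mir21a and Mir31 have 4 different seeds. The seed of miR-21a-5p was shared by 1 other mature microRNA of the table, miR-21c, and the other 3 seeds by none.

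Promoter sequence is shown for Gas5 and Vmp1 because TAF3 belongs to a promoter-binding factor; both were in the RefSeq promoter table (2 of 4 members). The 250 bases before the second of 2 listed Gas5 starts (plus strand) and before the first of 3 listed Vmp1 starts (minus strand) are printed 5′ to 3′. The letters TATATA, which read the same on both strands, and TATAAA were searched on both strands, and a match is in capitals.
Gas5, second start: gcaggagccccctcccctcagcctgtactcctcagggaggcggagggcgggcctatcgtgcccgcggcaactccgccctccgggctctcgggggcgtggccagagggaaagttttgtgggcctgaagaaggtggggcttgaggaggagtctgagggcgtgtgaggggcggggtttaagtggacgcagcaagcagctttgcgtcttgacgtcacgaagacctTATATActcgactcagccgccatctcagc
Vmp1, first start: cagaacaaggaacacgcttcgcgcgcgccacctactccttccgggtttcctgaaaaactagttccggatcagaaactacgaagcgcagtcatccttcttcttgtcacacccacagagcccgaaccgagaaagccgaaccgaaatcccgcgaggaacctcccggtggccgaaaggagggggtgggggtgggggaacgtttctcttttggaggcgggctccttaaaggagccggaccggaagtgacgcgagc
The Gas5 sequence holds 1 match, TATATA beginning 29 bases before the listed start, and the Vmp1 sequence holds neither. TATATA occurs in 5.25% and TATAAA or its reverse in 12.4% of 32851 promoter stretches of this length. The first listed Gas5 start and the other 2 Vmp1 starts, not printed, hold neither motif; the Gas5 start shown was chosen for its match, after the sequences had been seen. The stretches before the 2 Gas5 starts have 27 and 17 CG dinucleotides and those before the 3 Vmp1 starts 23, 18 and 1, where the median of all is 6. Junctions were not placed against these starts, because the builds differ.

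Most sites of the Gas5 and Mir31 host regions lay in a short stretch, and about as many sites of the Vmp1 and Mir21 region lay in such a stretch as outside it. When sites of all libraries were joined wherever gaps were at most 1000 bp, the fullest chain of each region, called its core here, held 31 of 34 sites at Gas5, 45 of 91 at Vmp1 and Mir21, and 39 of 52 at the Mir31 host. The cores spanned 2955, 3959 and 4966 bp. Together they covered 2.97% of the length of the regions and held 65.0% of the sites (115 of 177). The core was defined after the sites had been seen.

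**Figure D1:**
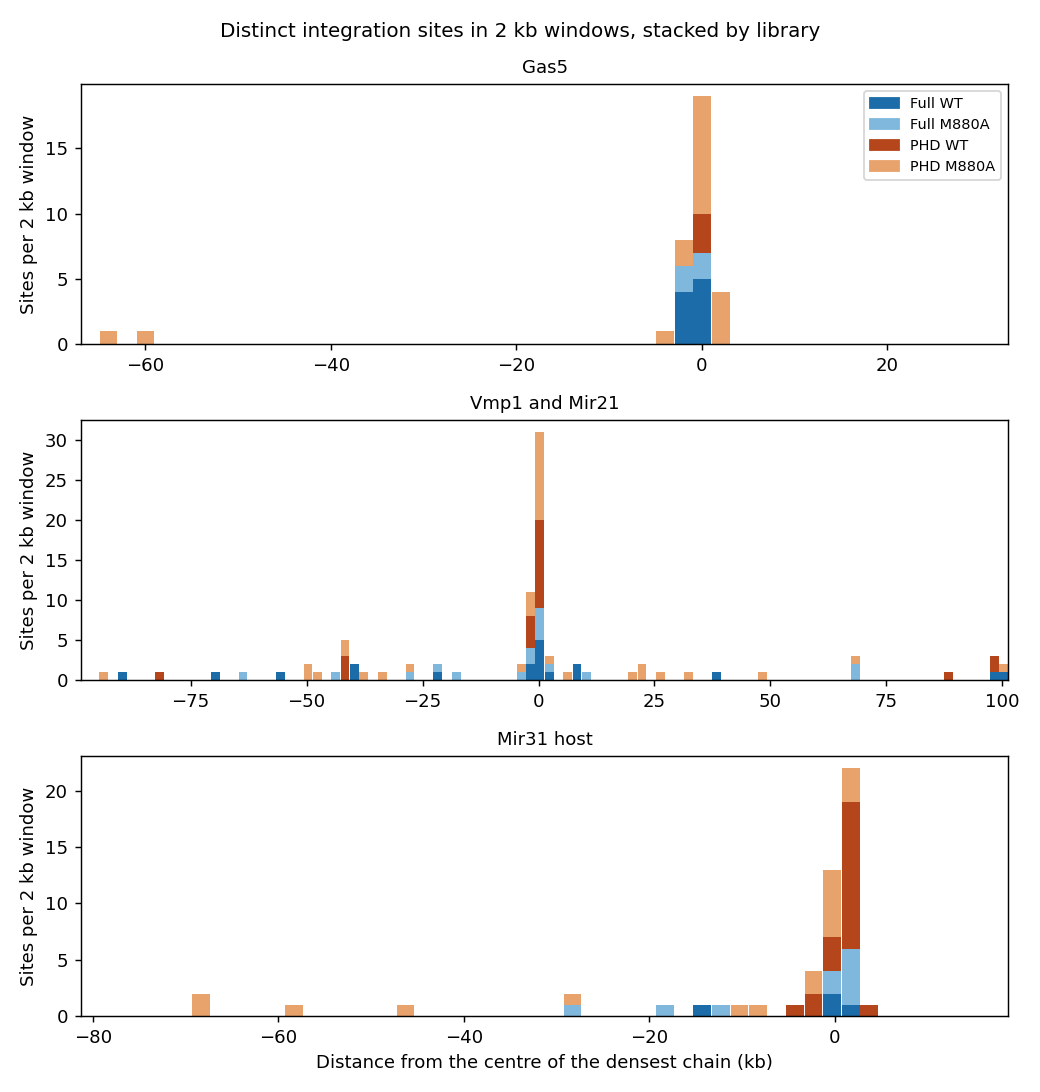
Distinct integration sites per 2 kb window (vertical axis), stacked by library, against the distance in kb from the centre of the densest chain of sites. The highest bar reaches 19 sites at Gas5, 31 at Vmp1 and Mir21 and 22 at the Mir31 host, and most other windows hold none or a few.

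Gas5 was hit most often by PHD M880A and Full WT. The region held 9 Full WT, 4 Full M880A, 3 PHD WT and 18 PHD M880A sites. Per 10000 sites of the library this was 4.0 (95% Poisson interval 1.83 to 7.60), 1.02 (0.277 to 2.61), 1.18 (0.244 to 3.46) and 5.16 (3.06 to 8.15). In order from high to low the shares were PHD M880A, Full WT, PHD WT and Full M880A. The intervals of the first 2 overlap each other, those of the last 2 overlap each other, and the Full WT interval also overlaps both of the lower ones. The PHD M880A interval overlaps that of PHD WT and lies above that of Full M880A. In PHD M880A only 4 of 16867 occupied 100 kb windows held more sites, whereas in PHD WT 64.9% of the occupied windows held fewer. The 10 surrounding windows (5 on each side) held 0 to 3 Full WT, 0 to 3 Full M880A, 0 to 4 PHD WT and 0 to 6 PHD M880A sites. The windows directly outside the region held 3, 3, 0 and 6 sites on the lower side and 3, 3, 2 and 3 on the upper side, in the order Full WT, Full M880A, PHD WT, PHD M880A.

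The WT to M880A ratio at Gas5 lay on opposite sides of 1 for the PHD domain and for the full-length protein. The ratio of shares, with 0.5 added to each count, was 0.260 for PHD WT over PHD M880A (exact conditional binomial interval 0.0433 to 0.785). For Full WT over Full M880A it was 3.69 (1.10 to 17.5). When sites needed 10 or more reads it was 2.81 (0.647 to 18.7), an interval that holds 1. The wild-type forms differed by 3.06 for Full over PHD (0.844 to 19.4), an interval that holds 1, and the M880A forms by 0.216 (0.0486 to 0.599). The PHD pair had 10 or more sites in 1056 windows of 100 kb, of which 1 had a lower ratio than the Gas5 window, and 1 of 870 windows did so for the M880A pair. In both pairs the Gas5 window reached 10 sites only through its 18 PHD M880A sites. By reads, support for PHD WT was thin: its 3 sites had 120, 2 and 2 reads. The median per site was 56 in Full WT, 97.5 in Full M880A and 22 in PHD M880A, where the medians of the whole libraries were 41, 24 and 23, and 29 in PHD WT.

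**Figure D2:**
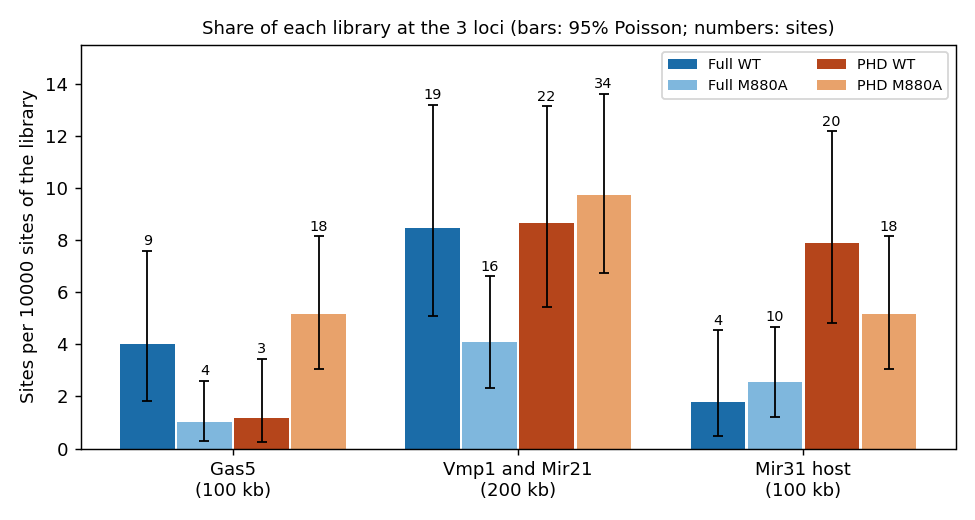
Sites per 10000 sites of the library (vertical axis) at the 3 regions, 1 bar per library, with 95% Poisson intervals and the number of sites above each bar. At Gas5 the bars of Full WT (4.0) and PHD M880A (5.16) stand above those of Full M880A (1.02) and PHD WT (1.18), while at the Mir31 host PHD WT has the tallest bar (7.89).

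The Gas5 core ran from 162965490 to 162968444. Of the 2 kb windows, that from 162966001 to 162968000 held 5 Full WT, 2 Full M880A, 3 PHD WT and 9 PHD M880A sites. The window before it, from 162964001, held 4, 2, 0 and 2, and the window after it, from 162968001, held only PHD M880A sites, 4 in number. Full WT sites fell mainly in the lower part of the core, with 7 before its middle and 2 after it, and their last site was at 162967380. The Full M880A sites split 3 and 1, and the PHD WT sites 0 and 3, with the first PHD WT site 1691 bp into the core. The PHD M880A sites split 7 and 8 and were the only ones beyond 162967885. The split of the core was not tested, and 3 or 4 sites of a library allow most divisions.

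The orientation of the vector along Gas5 was not tested and is given by position. The 5 minus-strand sites of Full WT lay from 162965490 to 162966618. The 4 plus-strand sites lay from 162965932, the site with the most reads (1226), to 162967380, so that the strands interleaved. In Full M880A both minus-strand sites (162965559 and 162965604) lay below both plus-strand sites (162966328 and 162967178). PHD M880A had 10 plus-strand sites from 162966186 to 162968173 and 5 minus-strand sites from 162965616 to 162968444, and 3 of these minus sites lay below 162966401. The remaining 3 PHD M880A sites of the region, at 162902377, 162906314 and 162963330, were outside the core and had 5, 2 and 20 reads. All sites of the other 3 libraries were in the core.

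**Figure D3:**
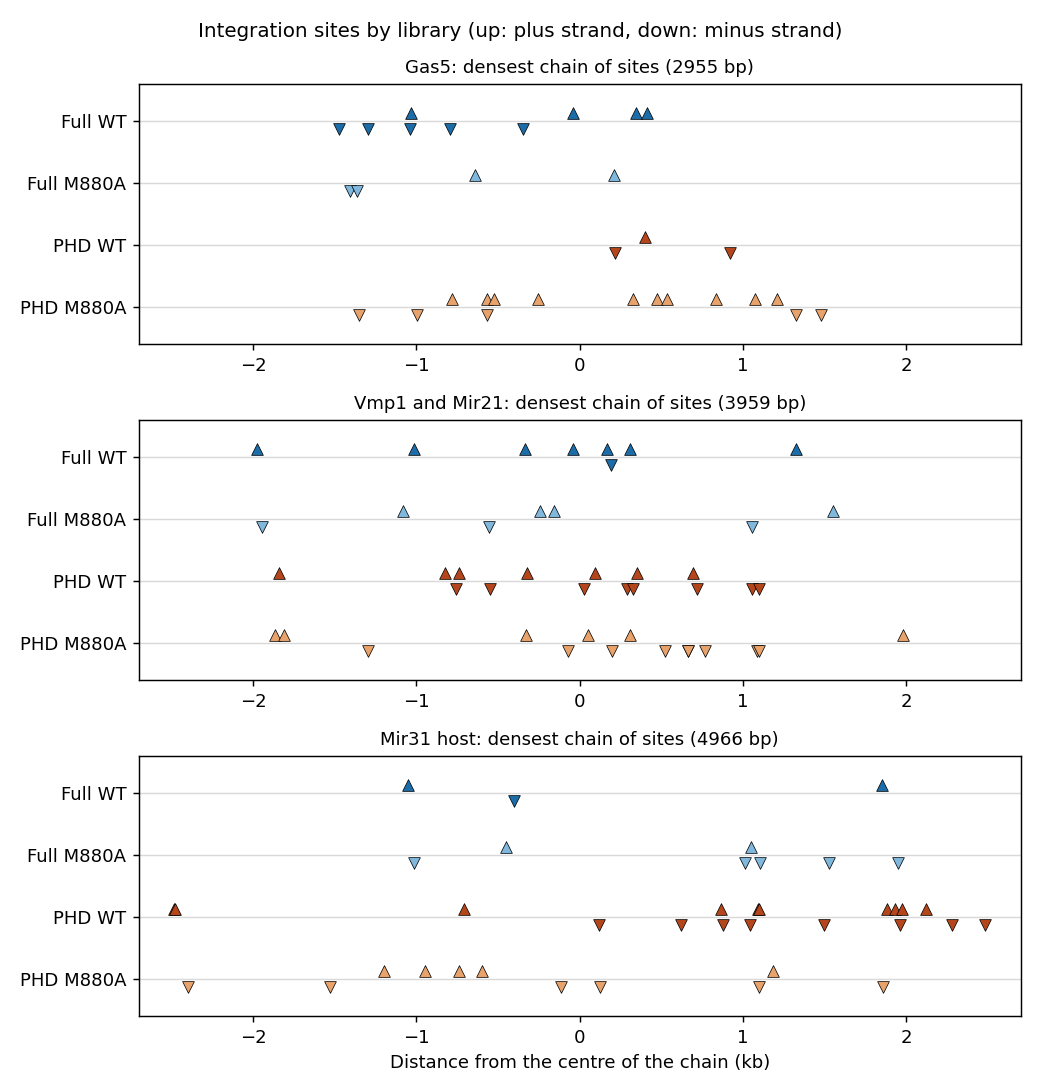
Positions of single integration sites in the densest chain of each region, as distance in kb from its centre, in 1 row per library; triangles point up for the plus strand and down for the minus strand. At Gas5 the 3 PHD WT sites lie right of the centre and 7 of 9 Full WT sites left of it, and at the Mir31 host 15 of 18 PHD WT sites lie right of the centre.

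Vmp1 and Mir21 were hit in every library. The 200 kb region held 19 Full WT, 16 Full M880A, 22 PHD WT and 34 PHD M880A sites, or 8.45 (5.09 to 13.2), 4.07 (2.33 to 6.61), 8.67 (5.44 to 13.1) and 9.75 (6.75 to 13.6) per 10000. The lowest share, that of Full M880A, had an interval below that of PHD M880A, and it overlapped the intervals of Full WT and PHD WT. The 3 higher shares overlapped one another. The ratio of shares was 0.897 for PHD WT over PHD M880A (0.496 to 1.57) and 2.07 for Full WT over Full M880A (1.01 to 4.31). It was 0.978 for Full WT over PHD WT (0.499 to 1.89) and 0.425 for Full M880A over PHD M880A (0.215 to 0.778). The first 100 kb held 13, 12, 19 and 24 sites in the order above and the second 6, 4, 3 and 10. In PHD M880A only 1 window of the genome held more sites than the first 100 kb.

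The Vmp1 and Mir21 core ran from 86396728 to 86400686 and held 8 Full WT, 7 Full M880A, 15 PHD WT and 15 PHD M880A sites. This was 42.1% of the Full WT sites of the region (95% Wilson interval 23.1 to 63.7), 43.8% of Full M880A (23.1 to 66.8), 68.2% of PHD WT (47.3 to 83.6) and 44.1% of PHD M880A (28.9 to 60.5). The 4 intervals overlap. Outside the core, 19 PHD M880A, 11 Full WT, 9 Full M880A and 7 PHD WT sites were spread over the region. For PHD WT over PHD M880A the ratio of shares was 1.38 within the core (0.627 to 3.02) and 0.529 outside it (0.180 to 1.26), and both intervals hold 1.

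Most core sites fell in a single 2 kb window. From 86398001 to 86400000 there were 5 Full WT, 4 Full M880A, 11 PHD WT and 11 PHD M880A sites, and in the 2 kb before it 2, 2, 4 and 3. Only 1 of the 33258 occupied 2 kb windows of PHD M880A held more sites than this window, whereas 51 did in PHD WT, 181 in Full WT and 243 in Full M880A. In this core 7 of 8 Full WT sites were on the plus strand (87.5%, Wilson 52.9 to 97.8), compared with 4 of 7 in Full M880A, 7 of 15 in PHD WT and 6 of 15 in PHD M880A. Of 12 such shares (3 cores, 4 libraries) this was the 1 whose unadjusted interval left out 50%. Counted over all libraries the strands were near balance, with 24 plus and 21 minus sites here, 17 and 14 in the Gas5 core and 19 and 20 in the Mir31 host core.

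Smaller groups of sites lay elsewhere in the Vmp1 and Mir21 region. From 86355996 to 86357635 there were 3 PHD WT, 2 PHD M880A and 1 Full M880A sites. Near the upper end of the region, from 86497712 to 86498071, there were 2 Full WT, 2 PHD WT and 1 PHD M880A sites. The 2 kb window from 86356001 was the only other one with at least 3 sites of any library, the 3 of PHD WT. The remaining sites were mostly alone: of 19 occupied PHD M880A windows in the region, 14 held 1 site, as did 8 of 12 in Full WT, 8 of 11 in Full M880A and 2 of 6 in PHD WT.

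The Mir31 host was hit mainly by the PHD libraries. The region held 4 Full WT, 10 Full M880A, 20 PHD WT and 18 PHD M880A sites, or 1.78 (0.485 to 4.55), 2.55 (1.22 to 4.68), 7.89 (4.82 to 12.2) and 5.16 (3.06 to 8.15) per 10000. The PHD WT interval lay above both Full intervals, and neighbours in the order of shares overlapped. Full WT over PHD WT was 0.248 (0.0561 to 0.673; 0.299 with an interval of 0.0479 to 1.01 at 10 or more reads), and Full M880A over PHD M880A was 0.504 (0.203 to 1.13). For PHD WT over PHD M880A the ratio was 1.52 (0.768 to 3.06) and for Full WT over Full M880A 0.749 (0.160 to 2.42), and both intervals hold 1. The 10 surrounding windows held at most 5 PHD WT and 6 PHD M880A sites, and up to 8 Full WT and 9 Full M880A sites.

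The Mir31 host core ran from 88578827 to 88583792 and held 3 Full WT, 7 Full M880A, 18 PHD WT and 11 PHD M880A sites. In the 2 kb from 88580001 to 88582000 there were 6 PHD M880A and 3 PHD WT sites, with 2 from each Full library. In the next 2 kb, to 88584000, there were 13 PHD WT and 3 PHD M880A sites, with 1 Full WT and 5 Full M880A sites. About the middle of the core the PHD WT sites split 3 before and 15 after, and the PHD M880A sites 7 before and 4 after. The Full M880A sites split 2 and 5 and the Full WT sites 2 and 1. These splits were not tested. The first and last sites of the core were PHD WT sites. The PHD M880A sites of the core, from 88578910 to 88583168, therefore had to lie between them. Within the core the ratio of shares of PHD WT over PHD M880A was 2.21 (1.01 to 5.27), against 1.52 (0.768 to 3.06) over the region. The core was drawn from these sites and left out 2 PHD WT and 7 PHD M880A sites, so nothing is read from its ratio. Of the PHD WT sites of the region 9 of 20 had under 10 reads, against 2 of 18 of the PHD M880A sites; in the whole libraries these shares were 34.6% and 31.4%.

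Ratios of the member windows were set beside those of all 100 kb windows with 10 or more sites over the pair. Of the 4 member windows of 100 kb, 2 (Gas5 and the second Vmp1 and Mir21 window, ratio 0.459) had a ratio of at most 0.5 in the PHD pair, where 0.947% of 1056 windows did. With 3 PHD WT sites each, both reached 10 sites only through their 18 and 10 PHD M880A sites. The first Vmp1 and Mir21 window had 1.09 and the Mir31 host 1.52. None of the 4 had a ratio of at least 2, which 70.2% of windows had. In the Full pair, 2 of 4 (Gas5 and the same second window, 2.52) had a ratio of at least 2, where 35.8% of 976 did, and none a ratio of at most 0.5 (4.2%). With 4 Full M880A sites each, both reached 10 sites only with their 9 and 6 Full WT sites. Between the M880A forms, 3 of 4 had a ratio of Full over PHD of at most 0.5, where 5.17% of 870 did, and none reached 2 (34.1%). Of these 3, Gas5 and the second Vmp1 and Mir21 window reached 10 sites only through their 18 and 10 PHD M880A sites. The interval of that second window (0.0813 to 1.23) holds 1. Between the WT forms, 3 member windows held enough sites: 1 (Gas5) had a ratio of at least 2, where 5.52% of 1160 did, and 1 (Mir31 host) a ratio of at most 0.5, where 20.9% did. Gas5 reached 10 sites here only with its 9 Full WT sites, and the Mir31 host only through its 20 PHD WT sites. Since these contrasts entered the choice of regions, nothing is read from these counts.

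**Figure D4:**
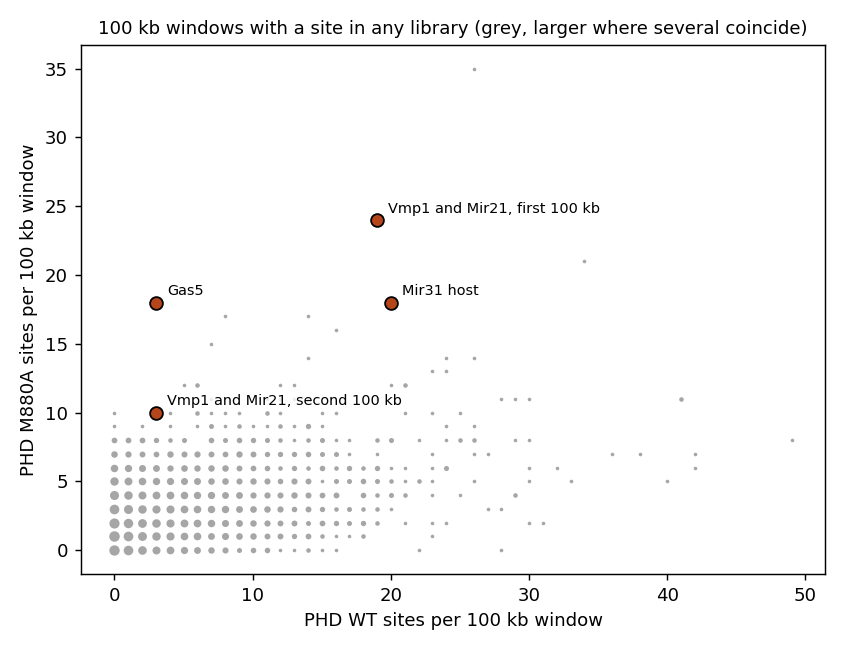
PHD M880A sites (vertical axis) against PHD WT sites (horizontal axis) in every 100 kb window with a site in any library; grey dots are larger where more windows coincide, and the 4 windows of the loci are marked. Gas5 lies at 3 and 18 sites, the Vmp1 and Mir21 windows at 19 and 24 and at 3 and 10, and the Mir31 host at 20 and 18.

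The sites of a library were close to one another at these loci. In PHD M880A, 15 of 18 Gas5 sites (83.3%, 60.8 to 94.2), 21 of 34 Vmp1 and Mir21 sites (61.8%, 45.0 to 76.1) and 13 of 18 Mir31 host sites (72.2%, 49.1 to 87.5) had another site of the library within 1 kb. Over the whole library 8.89% had one. Among sites with at least 10 reads the PHD M880A share at Vmp1 and Mir21 was 36.8% (19.2 to 59.0) and the Full WT share there 38.5% (17.7 to 64.5). In PHD WT the shares were 100% (3 of 3), 86.4% and 90.0%, against 67.2% over the library. In Full WT they were 100%, 68.4% and 50.0%, against 39.1%, and in Full M880A 100%, 43.8% and 70.0%, against 21.3%. All 12 shares were above that of the library. With at least 10 reads, PHD WT at Gas5 (1 site) and Full WT at the Mir31 host (3 sites) had 0%. The intervals treat sites as independent, but a close pair counts for both of its sites, so they do not test crowding. Regions chosen for many sites tend to hold close sites, so these shares are a description.

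**Figure D5:**
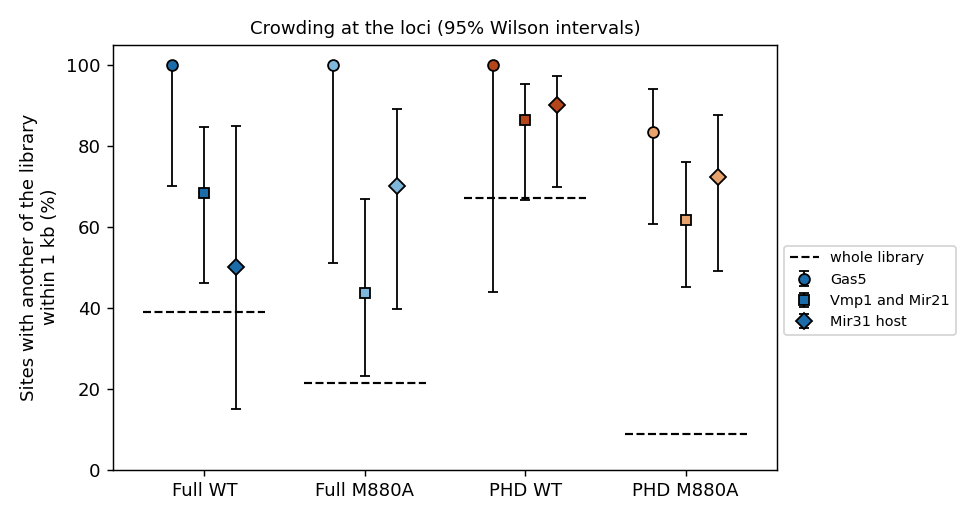
Share of sites, in percent, that had a neighbour from their own library within 1 kb (vertical axis) at Gas5 (circles), Vmp1 and Mir21 (squares) and the Mir31 host (diamonds), with 95% Wilson intervals; dashed lines mark the whole library. In PHD M880A the 3 points lie between 61.8% and 83.3% and the dashed line at 8.89%.

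In PHD M880A, 6 of the 34 occupied 2 kb windows of the loci held at least 3 sites, where 0.37% of all its occupied windows did (123 windows). In PHD WT 6 of 12 did, against 19.7%, in Full WT 3 of 17, against 7.19%, and in Full M880A 2 of 18, against 2.83%. The site of 1 library was often near those of the others. Of the PHD M880A sites, between 47.1% and 77.8% lay within 1 kb of a site of each other library, over 9 combinations of region and library, while over the whole library 6.70% to 8.02% did. Of the PHD WT sites, 20 of 22 at Vmp1 and Mir21 and 18 of 20 at the Mir31 host lay that close to a PHD M880A site, against 22.8% of the whole PHD WT library. The unthinned lists differ in length, which affects these shares. The regions were also chosen from their numbers of sites, and crowded windows and close sites come with such a choice. The shares beside those of the whole libraries are therefore a description. Windows of 2 kb used by all 4 libraries numbered 1 of 6 occupied at Gas5, 2 of 33 at Vmp1 and Mir21 and 2 of 14 at the Mir31 host. Such windows were not counted over the genome, so whether these numbers are high or low cannot be told.

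Few positions were used exactly in different libraries, in these regions and over the whole libraries. A single junction was listed on the same strand in different libraries, chromosome 11 at 86399806 on the minus strand, with 87 reads in PHD WT and 77 in PHD M880A, libraries of the same flow cell. Leaving out same-strand positions of other libraries lowered the Vmp1 and Mir21 sites from 22 to 21 in PHD WT and from 34 to 33 in PHD M880A. Over the whole libraries it lowered PHD WT from 25363 to 25037 sites and PHD M880A from 34888 to 34792. At the Mir31 host, position 88582408 was used on the plus strand in PHD WT (60 reads) and on the minus strand in PHD M880A (24 reads). Pairs of same-strand sites of different libraries within 10 bp numbered 0 at Gas5, 9 at Vmp1 and Mir21 and 2 at the Mir31 host. Pairs between libraries were not counted over the genome, so these numbers have no such level beside them. Same-strand pairs within 10 bp in 1 library, each counted here as separate sites, numbered 0, 2 and 2 in the same order of regions.

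The 100 kb window whose profile over the 4 libraries was most like that of Gas5 was the second Vmp1 and Mir21 window. Likeness was the summed absolute difference between shares per 10000, scaled to sum to 1, over 908 windows with at least 20 sites, and it was 0.182 for this pair. The next windows were chromosome 16 from 23100001 (7 Full WT, 3 Full M880A, 5 PHD WT and 12 PHD M880A sites; difference 0.216), chromosome 13 from 97400001 (0.226), chromosome 9 from 72500001 (0.268) and chromosome 1 from 178700001 (0.323). PHD M880A made up 45.4% of the scaled Gas5 profile, and the median over the 908 windows was 11.8%. Only 3 windows, Gas5 included, had a part as large as this. The Gas5 window reached the minimum of 20 sites only with its 18 PHD M880A sites. In windows of so few sites, profiles this close can differ by counting error alone.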

How the data were processed

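HIT-seq maps a chromatin protein by vector integration. Per the labels' protocols, nucleofected cells recovered for 24 to 36 h, were infected with 500 ng of vector and 8 µg/mL polybrene and collected 48 to 72 h later. From 10 µg of DNA sheared to near 500 bp, junctions were amplified by nested linker PCR, with 15 library cycles and read pairs of 108 nt.

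For every library the authors deposited a BED file (9 columns) that lists its sites. Per the submitters' processing notes coordinates are mm9 and MACS 1.4.2 took part in a role that is not stated. For aligner and filters, the sources used here give nothing. Deposited scores are 0 throughout and were not used (the score column). The other deposited values, start and end, are positions. The whole number after each read name was taken as reads, from its values only, with a minimum of 2. The lists summed to 2085037 to 3651264 reads.

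The junction was start plus 1 on the plus strand and the end on the minus strand, and lines that agreed in chromosome, strand and junction became 1 site, with reads summed. Groups came from the sample characteristics. Ratios of shares have 0.5 added to each count and exact conditional binomial intervals without it; counts have exact Poisson and percentages Wilson intervals, all 95%. On simulated windows with independent counts and no selection, the ratio interval held the true ratio in 97.6% of 1000. The reported regions were chosen from their counts and their sites lie close together, so this share need not hold for them. The 2 kb windows with at least 3 sites of a library, and the 5 windows most like Gas5, were named by rule. The members and lists were chosen with earlier results of these data known. Alternatives were a minimum of 10 reads, merging of same-strand positions within 10 bp, the other end as the junction, no collapsing, positions of other libraries left out, neighbours within 5 kb, windows of 1 and 5 kb, and, chosen after seeing the data, the core alone. Python 3.11.15, numpy 2.4.6, scipy 1.17.1 and matplotlib 3.10.9 were used.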

Additional observations from a re-analysis of the deposited data

Results flagged for a closer look

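In the reported setting, the WT to M880A ratios of full-length protein and PHD domain lay on opposite sides of 1 at all 3 regions. With 1 library of each form, the difference was not tested. Windows of the genome with such opposite ratios were not counted. At Vmp1 and Mir21 both ratios lay above 1 with at least 10 reads (Full 2.15, PHD 1.30) and in the core alone (1.98 and 1.38). The PHD ratio at the Mir31 host was 1.01 with at least 10 reads. The ratio for Full divided by the ratio for PHD was 14.2 at Gas5 (3.69 against 0.260). It was 2.30 at Vmp1 and Mir21 (2.07 against 0.897) and 0.491 at the Mir31 host (0.749 against 1.52). At Gas5 neither interval held 1, whereas at Vmp1 and Mir21 that of PHD did, and at the Mir31 host both did. With at least 10 reads the Gas5 interval for Full also held 1 (0.647 to 18.7). The Gas5 ratio for PHD rests on 3 PHD WT sites, and the regions were chosen from these counts. Full WT was alone on its flow cell, and its effect and that of the form cannot be told apart.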

How the results depend on the processing

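Each of the 12 ratios of shares was recomputed under 5 alternatives and in the core alone. All 72 values lay within the interval of the reported ratio. At Gas5, PHD WT over PHD M880A ranged from 0.173 to 0.311 and its interval left out 1 in 6 of 6. Full WT over Full M880A ranged from 2.81 to 3.72, with an interval that left out 1 in 5 of 6 (all but the minimum of 10 reads). Merging, the other end, no collapsing and leaving out positions of other libraries changed none of the Gas5 counts. Only library totals differed there, so these alternatives could hardly move the Gas5 ratios. The core alone also kept the 9 Full WT and 4 Full M880A sites. With the minimum of 10 reads these were 6 and 3. At Vmp1 and Mir21 the intervals of Full WT over Full M880A (1.98 to 2.16) and of Full M880A over PHD M880A (0.426 to 0.455) left out 1 in 4 of 6 and held it with that minimum and in the core alone. PHD WT over PHD M880A at the Mir31 host ranged from 1.01 (at least 10 reads) to 2.21 (core alone), and at Vmp1 and Mir21 from 0.892 to 1.38, across 1. Of 72 alternative neighbour shares, 8 left the interval of the reported share: 4 with a minimum of 10 reads, among them PHD WT at Gas5 and Full WT at the Mir31 host, at 0%, and 4 with neighbours within 5 kb. The fullest Full WT window at Gas5 moved to the neighbouring stretch with windows of 1 kb; the other 23 alternatives overlapped the reported window. Few sites limit every value: Gas5 rests on 3 PHD WT and 4 Full M880A sites. No paired analysis was possible because each group has 1 library.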
